A study of Mus musculus with 24 samples.

Results

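Elf5, Ehf, Elf3, Spdef, Gata3, Stat5a and Kit are 7 genes tied to the luminal lineage of the mammary gland, and they were followed across 24 mouse expression arrays. They were chosen by symbol, as every probe set (a group of array probes for 1 transcript) annotated to 1 of the 7 names. There were 13 such probe sets among 45101 on the array. Of these, 11 passed a filter on low values, and each of the 7 genes was among the 13485 genes tested. The tumour cells came from 5 independent mammary adenocarcinomas, A to E, of C57BL6/J mice with the genotype Apc+/1572T, in which 1 copy of the Wnt pathway regulator Apc is truncated. The normal cells came from 3 separate pools of mammary glands, F to H, of C57BL6/J Apc+/+ mice, so genotype and tumour state cannot be told apart. From each tumour and pool, 10000 cells were sorted of each of 3 populations. These were Lin-CD29hiCD24+ cells, the gate the submitters use for stem cells, Lin-CD29+CD24+ cells, their more differentiated counterparts, and Lin- cells, from which lineage-marked cells had been depleted. Below they are called CD29hiCD24+, CD29+CD24+ and Lin-, and each had 5 tumour and 3 normal arrays. No age or parity of the mice was given.

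The ducts and alveoli of the mammary gland are lined by an inner layer of luminal cells, some of which sense hormones while others can make milk, and by an outer layer of contractile basal cells. Elf5, Ehf, Elf3 and Spdef encode ETS factors of epithelia, Gata3 a zinc finger factor needed to form and keep luminal cells, and Stat5a the transcription factor through which prolactin acts. Elf5 acts with prolactin signalling to drive alveolar cells towards milk secretion. Kit is not a transcription factor: it encodes the receptor tyrosine kinase for stem cell factor and is a surface marker of luminal progenitors.

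All values are log2 signals, so a difference of 1 is a 2-fold difference. Values up to 2.83 (the 40th percentile of the table) are called the low band, where background removal leaves little signal and differences are compressed. A gene was called when its Benjamini-Hochberg adjusted p in limma, over all genes tested, was under 0.05. Values after ± are standard errors of a difference, or SD where written. Luminal markers (keratins and claudins among them, 10 of 10 measured) were present in every group, with array means of 7.89 to 11.99 in tumour arrays and 9.18 to 13.65 in normal arrays. Of these 10 markers, 6, 10 and 9 were called lower in tumour CD29hiCD24+, CD29+CD24+ and Lin- cells, and 0 higher (limma). The shares of all genes called lower were 22.9%, 27.1% and 26.6%. Squamous markers, 12 of 12 measured, had array means of 8.16 to 12.55 in tumour arrays and 4.38 to 5.58 in normal arrays. In bulk RNA of this kind, fewer luminal cells and less RNA per luminal cell cannot be told apart, and the part of cell makeup in the results below was not tested. The normal CD29hiCD24+ array of pool F stood apart, with a leukocyte marker mean of 7.44 against 2.98 and 3.06 in the other pools, and a luminal marker mean of 9.18 against 11.59 and 11.38. Its endothelial marker mean was 9.58 against 6.81 and 7.80. Its 3' minus 5' signal of actin, which rises as RNA shortens, was 2.89 against 2.49 and 2.20. Where its removal changed a call or moved a called value by over 1.5 times, both values are given.

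**Figure D1:**
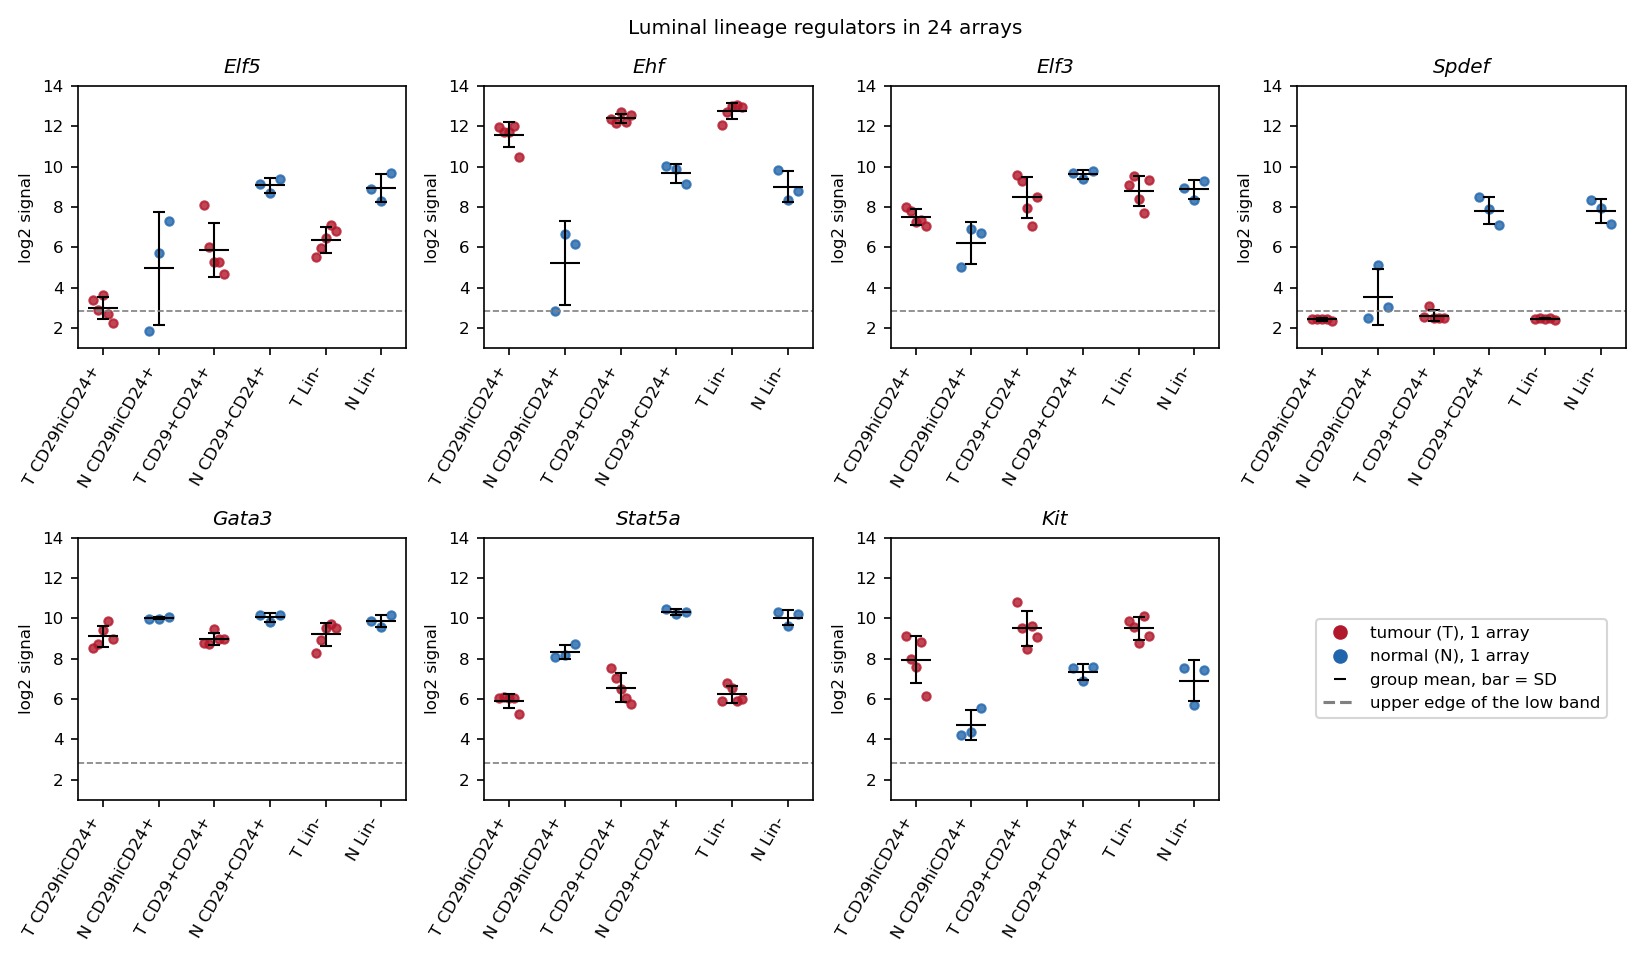
Log2 signal of the 7 genes (y axes) in the 6 groups (x axes), with tumour (T, red) left of normal (N, blue) for each sorted population. A point is 1 array, the black bar is the group mean with its SD, and the dashed line is the upper edge of the low band at 2.83. Ehf and Kit sit higher in tumour arrays of all 3 populations, Stat5a and Spdef lower, and all 5 tumour values of Spdef lie in the low band in CD29hiCD24+ and in Lin- cells.

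Ehf and Elf5 are neighbours that moved in opposite directions in CD29+CD24+ and Lin- cells. In the GRCm38.p6 annotation of RefSeq, Ehf spans chr2:103263431-103303275 and Elf5 chr2:103412098-103450989, with 109 kb and no protein-coding gene between them. Ehf was higher in tumours in every population. In CD29hiCD24+ cells it had 11.94, 11.73, 11.73, 12.02 and 10.50 in tumours A to E, against 2.86, 6.67 and 6.16 in pools F to H. No tumour array came near a normal one, and pool F had the lowest value. The difference was 6.35 ± 0.58 (adjusted p = 3.18e-08), or 81.7-fold. The CD29+CD24+ gate gave Ehf values of 12.37, 12.17, 12.70, 12.22 and 12.55 in tumours, against 10.03, 9.86 and 9.12 in pools, a difference of 2.73 ± 0.58 (adjusted p = 0.000564). In Lin- cells it had 12.09 to 13.05 in tumours and 8.35 to 9.85 in pools, a difference of 3.76 ± 0.58 (adjusted p = 2.24e-05). The groups did not overlap in any of the 3 populations. Without the array of pool F the difference in CD29hiCD24+ cells was 5.17, and Ehf kept its call in all 3 populations under all 18 alternatives tried. Of the other probe sets of Ehf, a pair had called differences of 5.96 and 5.09 in CD29hiCD24+ cells, and the last lay in the low band in all 24 arrays.

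Elf5 was lower in tumours in the differentiated gate and in Lin- cells. The CD29+CD24+ values were 8.10, 6.01, 5.30, 5.26 and 4.69 in tumours A to E, against 9.16, 8.67 and 9.41 in pools F to H. Tumour A came closest to the pools, and no tumour reached them. The difference was -3.21 ± 0.84 (adjusted p = 0.00377). In Lin- cells Elf5 had 5.53, 5.98, 6.46, 7.13 and 6.80 in tumours, against 8.87, 8.30 and 9.68 in pools, a difference of -2.57 ± 0.84 (adjusted p = 0.0186) that lost its call without pool H (adjusted p = 0.0562, the highest over the alternatives, which ran down to 0.00162). The CD29hiCD24+ values were 3.41, 2.89, 3.66, 2.72 and 2.26 in tumours, against 1.87, 5.72 and 7.30 in pools. Tumours D and E and pool F were in the low band there. The array of pool F was the lowest of all 8, so the groups overlapped, and the difference of -1.98 ± 0.84 was not called (adjusted p = 0.0705). Without that array it was -3.53 and called (adjusted p = 0.000492), while without pool H it was -0.81 (adjusted p = 0.510). With the 3' minus 5' signal of actin as a covariate, which rises as RNA shortens and was 2.03 ± 0.30 in tumour (n = 5) and 2.53 ± 0.35 in normal arrays (SD, n = 3), it was -2.71 and called (adjusted p = 0.0154). A second Elf5 probe set read 2.14 to 2.33 in all arrays and so lay in the low band throughout.

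Elf3, an ETS factor of epithelia like the first pair, had no called difference between tumour and normal cells in any population. In CD29hiCD24+ cells it had 7.98, 7.83, 7.24, 7.38 and 7.05 in tumours A to E, against 5.03, 6.91 and 6.71 in pools F to H. Every tumour lay above every pool, tumour E by a small margin. The difference of 1.28 ± 0.51 missed the threshold (adjusted p = 0.0536, 0.0270 to 0.402 over the alternatives). It passed with the tumour or pool as a random block (adjusted p = 0.0472) and without tumour D (adjusted p = 0.0270) or pool G (1.62, adjusted p = 0.0433). Blocking ranges of description numbers gave 1.31 and gained a call as well. Tumour E is the only tumour in a range with the pools, so the tumour level then rested on it. Without the CD29hiCD24+ array of pool F the difference was 0.68 and not called. Among CD29+CD24+ cells tumours had 9.60, 9.28, 7.95, 7.06 and 8.51, against 9.70, 9.37 and 9.78 in pools. Tumours A and B lay at the pools' level and tumour D far below. The difference was -1.14 ± 0.51 (adjusted p = 0.0784), called without tumour A (-1.42, adjusted p = 0.0331). Lin- cells had 7.72 to 9.55 in tumours and 8.36 to 9.31 in pools, a difference of -0.06 ± 0.51 (adjusted p = 0.939).

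Spdef, a factor of secretory epithelial cells, was called lower in tumours in all 3 populations and lay in the low band in nearly all tumour arrays. In CD29+CD24+ cells it had 2.57, 3.07, 2.48, 2.51 and 2.48 in tumours A to E, against 8.47, 7.89 and 7.11 in pools F to H. Only tumour B lay above the low band, so the difference of -5.20 ± 0.40 (adjusted p = 1.00e-09) is compressed. In Lin- cells the 5 tumours had 2.41 to 2.52 and the 3 pools 7.16 to 8.34, a difference of -5.35 ± 0.40 (adjusted p = 1.20e-09). Its CD29hiCD24+ values were 2.44, 2.47, 2.44, 2.47 and 2.33 in tumours, against 2.48, 5.14 and 3.03 in pools. Pool F was in the low band as well, and pool G alone was clearly above it. The difference there was -1.12 ± 0.40 (adjusted p = 0.0304). That call was lost without pool G (-0.32, adjusted p = 0.447) and without any single tumour A to E (adjusted p = 0.0555 to 0.0700). It was also lost with the actin covariate (adjusted p = 0.0644) and with only these groups fitted (adjusted p = 0.125). A block for ranges of sample description numbers lost it too (-1.22), with the tumour level resting on tumour E. Over all alternatives its adjusted p ran from 0.00193 to 0.447.

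Gata3 was above the low band in every array, and was called lower in tumours in both CD29 gates. In CD29hiCD24+ cells it had 8.54, 8.73, 9.40, 9.86 and 8.99 in tumours A to E, against 9.98, 9.95 and 10.05 in pools F to H. The pools lay within a narrow range and every tumour fell below it, tumour D just so. The difference was -0.89 ± 0.29 (adjusted p = 0.0205, 0.00441 to 0.102 over the alternatives). It lost its call after quantile normalisation (-0.63, adjusted p = 0.102) and without tumour B or any single pool (adjusted p = 0.0541 to 0.0765), and also without the CD29hiCD24+ array of pool F alone (-0.90, adjusted p = 0.0530). Gata3 in CD29+CD24+ cells had 8.79, 8.70, 9.44, 8.98 and 8.99 in tumours, against 10.15, 9.79 and 10.16 in pools, a difference of -1.06 ± 0.29 (adjusted p = 0.00589). In Lin- cells tumours had 8.29 to 9.70 and pools 9.56 to 10.16. These overlapped, and the difference of -0.67 ± 0.29 was not called (adjusted p = 0.0750), though it was without tumour D (-0.80, adjusted p = 0.0280). When ranges of description numbers were blocked, so that the tumour level rested on tumour E, the difference was -0.60 and gained a call as well. The adjusted p of Gata3 in Lin- cells ran up to 0.301 over the alternatives. Gata3 is also a gene of T cells, among whose markers Cd3e, Cd3d, Cd3g, Cd2 and Lck did not pass the filter on low values. Of the 3 measured of 9, Cd4 and Cd8a were not called between tumour and normal cells in any population, and Il7r was called lower in tumour Lin- cells, at 2.43 against 4.92 in normal ones (-2.49 ± 0.58, adjusted p = 0.00166). The part of T cells in the Lin- values of Gata3 was not tested.

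Stat5a was lower in tumours in every population. In CD29hiCD24+ cells it had 6.07, 6.08, 6.06, 6.06 and 5.26 in tumours A to E, against 8.09, 8.17 and 8.73 in pools F to H. All 5 tumours lay below all 3 pools. The difference was -2.43 ± 0.33 (adjusted p = 7.73e-06), 5.38-fold lower in tumours. Stat5a in CD29+CD24+ cells had 7.53, 7.02, 6.48, 6.05 and 5.74 in tumours, against 10.46, 10.19 and 10.31 in pools. The gap was wider than in the CD29hiCD24+ gate, at -3.76 ± 0.33 (adjusted p = 9.68e-09), and the test of that change is given with the gates below. In Lin- cells tumours had 5.90 to 6.78 and pools 9.60 to 10.30, a difference of -3.80 ± 0.33 (adjusted p = 1.34e-08). Stat5a kept its call in the 3 populations under all 18 alternatives. Its second probe set was in the low band in all 15 tumour arrays and read up to 6.71 in normal ones. It was called lower in tumour CD29+CD24+ (-3.60 ± 0.57) and Lin- cells (-2.52 ± 0.57) and not in CD29hiCD24+ cells (-0.52 ± 0.57, adjusted p = 0.530), where pools F and G were in the low band too.

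Kit was higher in tumours in every population. In CD29hiCD24+ cells it had 9.10, 7.996, 7.60, 8.84 and 6.16 in tumours A to E, against 4.21, 4.38 and 5.57 in pools F to H. Tumour E was the lowest tumour and still above every pool. The difference was 3.22 ± 0.59 (adjusted p = 0.000203), or 9.31-fold. Kit in CD29+CD24+ cells had 10.82, 9.49, 8.48, 9.63 and 9.05 in tumours, against 7.51, 6.86 and 7.58 in pools, a difference of 2.18 ± 0.59 (adjusted p = 0.00492). In Lin- cells the tumours had 8.78 to 10.12 and the pools 5.72 to 7.53, a difference of 2.60 ± 0.59 (adjusted p = 0.00131). The labels give each array a description number, and ranges of these numbers were cut for the re-analysis. Tumour E alone shares a range with the pools. Once those ranges entered as a block, so that tumour against normal rested on tumour E, the CD29+CD24+ difference was 1.31 and not called (adjusted p = 0.113, the highest over the alternatives, down to 0.000176). A second probe set was also higher in tumour CD29+CD24+ (1.45 ± 0.28, adjusted p = 0.000266) and Lin- cells (1.38 ± 0.28, adjusted p = 0.000496), and not called in CD29hiCD24+ cells (0.69 ± 0.28, adjusted p = 0.0599). Kit is also a known gene of mast cells and melanocytes. Of 8 mast cell markers 4 were measured, with array means of 2.78 to 4.44 in tumour arrays and 2.76 to 4.42 in normal arrays, and none was called higher in tumours (limma, also 0 at an unadjusted p under 0.05). Hdc was called lower in tumour CD29hiCD24+ cells (-2.85 ± 0.95, adjusted p = 0.0213). Cpa3 was in the low band in both CD29 gates of tumours and of normal glands. Of 6 melanocyte markers, Dct, Tyrp1, Pmel and Mlana did not pass the filter on low values and Tyr was not called. Sox10 was called higher in tumour CD29+CD24+ cells, at 8.08 against 6.47 in normal ones (1.61 ± 0.37, adjusted p = 0.00128), and was not called in CD29hiCD24+ (-0.61 ± 0.37, adjusted p = 0.208) or Lin- cells (0.19 ± 0.37, adjusted p = 0.709). The part of these cell types in the values of Kit was not tested.

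**Figure D2:**
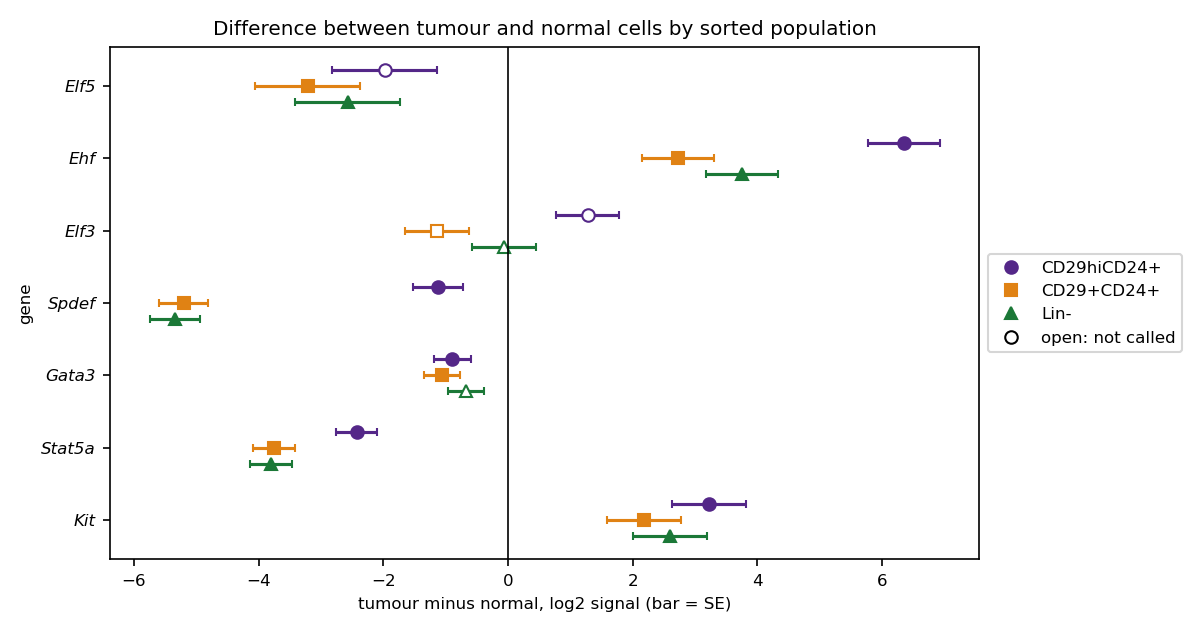
Tumour minus normal difference in log2 signal (x axis, bar = SE) of the 7 genes (y axis) in CD29hiCD24+ (circles), CD29+CD24+ (squares) and Lin- cells (triangles). Filled symbols were called. Ehf and Kit are to the right of 0 and Stat5a and Spdef to the left in all 3 populations, with Ehf reaching 6.35 and Spdef -5.35.

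As counts, 2 of the 7 genes were called higher and 3 lower in tumour CD29hiCD24+ cells. Of all genes tested, 38.6% were called there, 15.6% higher and 22.9% lower. Tumour and normal ranges were apart for 6 of 7, against 37.0% of all genes. The CD29+CD24+ comparison had 2 higher and 4 lower, against 43.5% of all genes called (16.4% higher and 27.1% lower), with no overlap for 6 of 7 and for 44.8% of all genes. In Lin- cells 2 were higher and 3 lower, against 40.6% called (13.9% higher and 26.6% lower), with no overlap for 5 of 7 and for 38.7% of all genes. Ehf and Kit were called higher in all 3 populations, as 4.89% of all genes were, and Spdef and Stat5a lower in all 3, as 6.44% were. The median difference of the 7 genes was -0.89, -1.14 and -0.67 in CD29hiCD24+, CD29+CD24+ and Lin- cells, against -0.01, -0.01 and -0.08 over all genes. In CD29hiCD24+ cells 2105 genes were higher and 3094 lower as deposited, and after quantile normalisation 2882 were higher and 2483 lower. None of the 5 called genes changed direction with that scaling. Gata3 lost its call, and Elf3 gained one (1.48, adjusted p = 0.0281).

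The sequences just before the start sites are shown for Spdef, Stat5a and Kit, which, like Ehf, were called in 1 direction in all 3 populations. No such sequence was available for Ehf, so it was not searched. Each line has, from RefSeq (GRCm38.p6), the 250 bases before the start on the gene's strand, 5' to 3', and capitals mark a match of AGGAAG, an ETS core with flanking bases, on either strand (CTTCCT when read from the other strand).
Spdef, chr17:27728952-27729201, minus strand: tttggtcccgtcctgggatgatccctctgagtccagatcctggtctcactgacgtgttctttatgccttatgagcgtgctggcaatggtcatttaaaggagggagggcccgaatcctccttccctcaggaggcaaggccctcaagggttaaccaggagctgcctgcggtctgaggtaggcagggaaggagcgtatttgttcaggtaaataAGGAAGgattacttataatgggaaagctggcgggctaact
Stat5a, chr11:100859406-100859655, plus strand: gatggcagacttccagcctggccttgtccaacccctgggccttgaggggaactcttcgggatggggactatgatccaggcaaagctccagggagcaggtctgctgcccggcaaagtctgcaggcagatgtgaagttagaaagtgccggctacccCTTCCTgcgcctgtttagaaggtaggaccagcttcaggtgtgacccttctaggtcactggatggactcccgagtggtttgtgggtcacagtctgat
Kit, chr5:75574737-75574986, plus strand: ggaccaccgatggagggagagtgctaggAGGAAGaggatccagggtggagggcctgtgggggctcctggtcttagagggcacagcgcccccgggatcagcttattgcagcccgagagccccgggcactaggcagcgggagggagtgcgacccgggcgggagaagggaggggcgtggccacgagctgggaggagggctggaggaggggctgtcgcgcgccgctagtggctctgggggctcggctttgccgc

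The match lay at -40 to -35 from the start in Spdef, at -96 to -91 in Stat5a and at -222 to -217 in Kit. The second start sites of Stat5a and Kit had it at -10 to -5 and at -226 to -221. AGGAAG was found in 29.5% of 32851 promoter windows of the same length, so these matches are a description of the letters there. A STAT palindrome, TTCNNNGAA, found in 7.02% of windows, and a GATA core, AGATAA, found in 9.99%, had no match in the windows of Elf5, Elf3, Gata3, Spdef, Stat5a or Kit. A TCF and LEF core, CTTTGA, found in 13.8%, matched at -51 to -46 of the second start site of Elf5 and at -40 to -35 of the second start site of Stat5a. Elf3, Gata3 and the first start site of Elf5 held none of the 4 motifs, and the motifs overlap each other in no window printed.

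The second question of the series is how the stem cell gate differs from its differentiated counterpart. In normal glands, 6 of the 7 genes were lower in CD29hiCD24+ than in CD29+CD24+ cells and 0 were higher (limma, also 0 at an unadjusted p under 0.05), where 46.6% of all genes were called (21.3% higher and 25.3% lower). The values per array are those given above. The differences were -4.44 ± 0.64 for Ehf, -4.28 ± 0.44 for Spdef, -4.12 ± 0.94 for Elf5, -3.40 ± 0.57 for Elf3, -2.60 ± 0.66 for Kit and -1.99 ± 0.37 for Stat5a. Their adjusted p ran from 1.17e-07 for Spdef to 0.00274 for Kit. Pool F had the widest gap for Elf5, at -7.29 against -2.95 in pool G and -2.11 in pool H, and for Ehf, at -7.17 against -3.19 and -2.96. Without its CD29hiCD24+ array the difference was -2.57 for Elf5 (adjusted p = 0.00885) and -3.25 for Ehf (adjusted p = 5.2e-06). For these 6 genes no CD29hiCD24+ pool overlapped the CD29+CD24+ pools, as for 58.2% of all genes, and all 3 pools showed the direction. Gata3 differed by -0.04 ± 0.33 (adjusted p = 0.959), with 9.99 ± 0.05 in CD29hiCD24+ pools, against 10.04 ± 0.21 in CD29+CD24+ pools (SD, n = 3 each). Luminal markers were lower in the same gate, 7 of 10 called, their array means being 9.18 to 11.59 in the CD29hiCD24+ gate against 13.49 to 13.65 in the other. Basal markers were higher, 10 of 10 called. The 3' minus 5' signal of actin was 2.53 ± 0.35 in CD29hiCD24+ pools, against 1.61 ± 0.21 in CD29+CD24+ pools (SD, n = 3 each). With that signal as a covariate Kit lost its call (-1.66, adjusted p = 0.0908, the highest over its alternatives, down to 0.000156) while Elf3 was -2.08 and called. The second Kit probe set showed no such gate difference (0.01 ± 0.31, adjusted p = 0.996), so the result for Kit rests on 1 of its 2 probe sets.

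Between the same gates in tumours 1 of the 7 genes was called, Elf5, with -2.88 ± 0.73 (adjusted p = 0.0305), beside 4.19% of all genes called and 1.94% called lower. It was lower in CD29hiCD24+ cells in each of the 5 tumours, by 1.64 to 4.69, with no overlap between the gates, as in 5.05% of all genes. Its CD29hiCD24+ values were in the low band in tumours D (2.72) and E (2.26), where differences are compressed. Elf5 lost its call when any single tumour was left out (adjusted p = 0.0599 to 0.115), and with the tumour or pool as a random block it kept it. The main fit had no term for the tumour, while arrays of 1 tumour correlated at a median of 0.578 with group means removed. With the block 1817 genes were called between these gates, against 565 in the main fit, and 2 of the 7. Kit was lower in CD29hiCD24+ cells in 5 of 5 tumours too, by -1.56 ± 0.51, and was not called (adjusted p = 0.0880), but was with the block (adjusted p = 0.0116; 0.0116 to 0.278 over the alternatives). Ehf (-0.82 ± 0.50, adjusted p = 0.396) was lower in 5 of 5 tumours, and Elf3 (-0.98 ± 0.44, adjusted p = 0.219) and Stat5a (-0.66 ± 0.29, adjusted p = 0.203) in 4 of 5. Spdef was in the low band in both gates apart from tumour B. Gata3 differed by 0.12 ± 0.25 (adjusted p = 0.890).

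**Figure D3:**
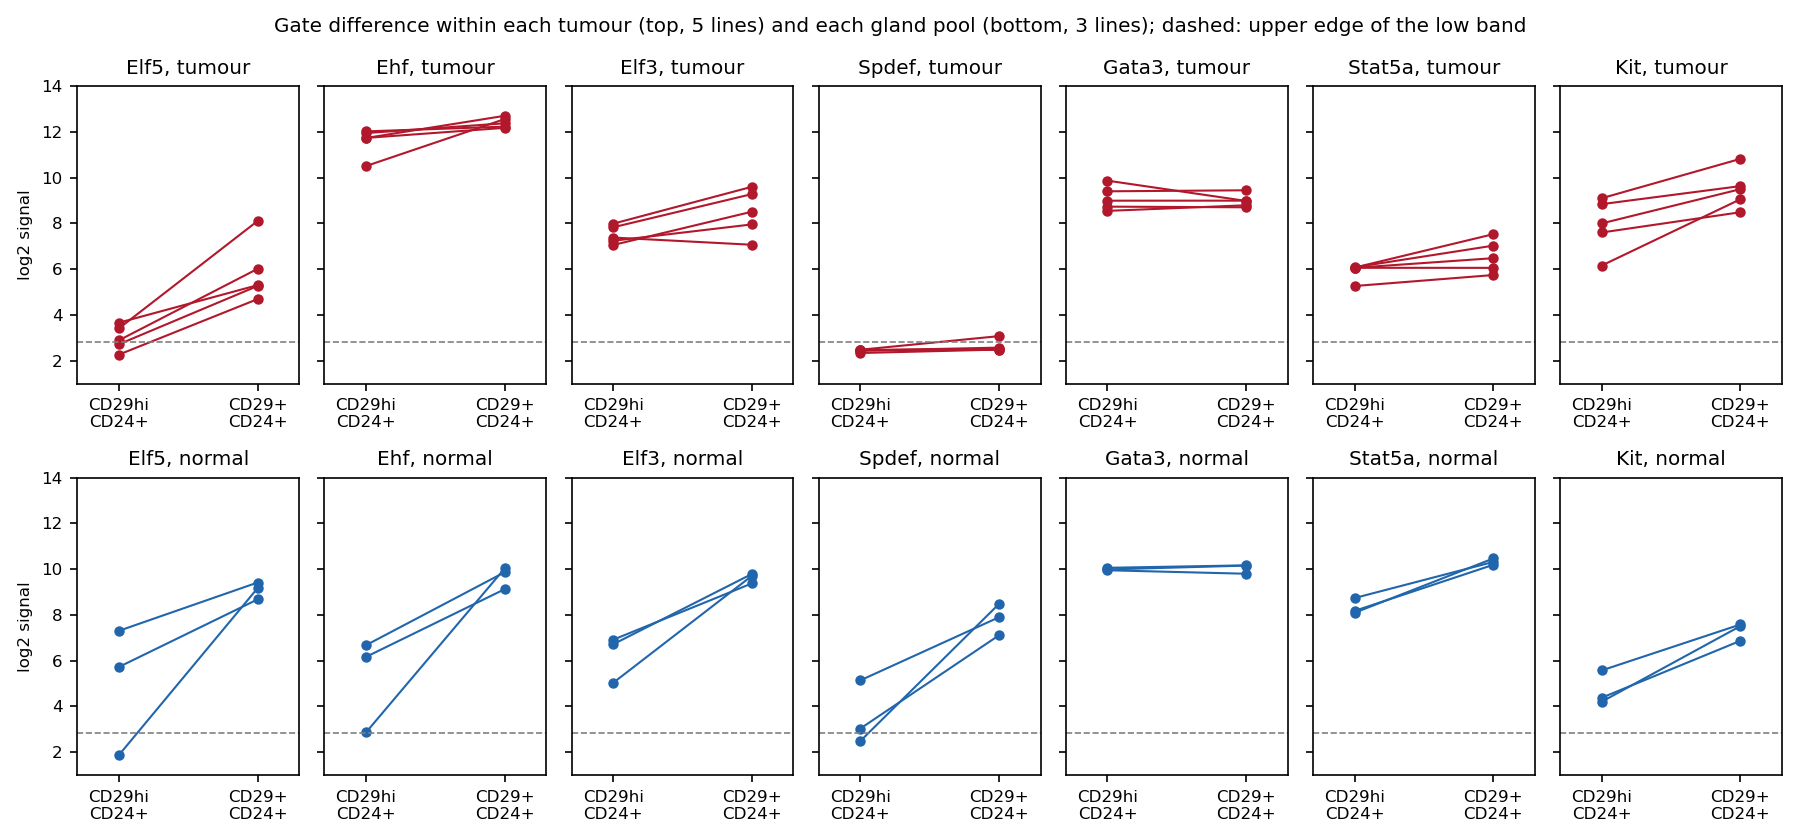
Log2 signal (y axis) of the 7 genes in CD29hiCD24+ (left of each panel) and CD29+CD24+ cells (right), joined by a line for each tumour A to E (top, red) and each gland pool F to H (bottom, blue). The dashed line is the upper edge of the low band at 2.83. The lines of Ehf climb steeply to the right in pools and little in tumours, those of Elf5 climb in both, and those of Gata3 are nearly level.

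The difference between the gates was itself compared between tumours and normal glands. It was larger, that is less negative, in tumours for 4 of the 7 genes and smaller for 0 (limma, also 0 at an unadjusted p under 0.05), where 42.0% of all genes were called, 22.2% larger and 19.8% smaller. Ehf changed by 3.62 ± 0.81 (adjusted p = 0.00128), with a gate difference of -0.82 in tumours and -4.44 in normal glands. It kept its call at 2.43 without the CD29hiCD24+ array of pool F and at 2.25 without all of pool F. Of the other probe sets of Ehf, a pair had smaller changes of 2.15 ± 0.51 and 2.25 ± 0.68, both called. Spdef changed by 4.08 ± 0.56 (adjusted p = 8.96e-06), with tumour values in the low band, where differences are compressed. Elf3 changed by 2.42 ± 0.72 (adjusted p = 0.0104, up to 0.186 over the alternatives) and lost its call with the actin covariate (1.05) and without pool F (1.78, adjusted p = 0.0988). Stat5a changed by 1.33 ± 0.47 (adjusted p = 0.0278). Its call was lost with the actin covariate (0.79, adjusted p = 0.243) and without tumour C or D, pool F or G or the CD29hiCD24+ array of pool F (adjusted p = 0.0619 to 0.145). Without that array alone Stat5a changed by 1.21 (adjusted p = 0.0729). Elf5 (1.23 ± 1.19, adjusted p = 0.445), Kit (1.04 ± 0.84, adjusted p = 0.348) and Gata3 (0.17 ± 0.42, adjusted p = 0.802) were not called. The second Kit probe set had the other sign and was not called either (-0.75 ± 0.39). The second Stat5a probe set changed by 3.08 ± 0.81 and was called, with all its tumour values in the low band. For Elf5 the value was -0.31 without the CD29hiCD24+ array of pool F, with tumours D and E in the low band in that gate. Quantile normalisation moved the median of all genes in this comparison to 0.16, against 0.04 as deposited. Basal markers had a less positive gate difference in tumours, 10 of 10 called (median change -9.39). In tumour CD29+CD24+ cells 6 of these 10 were called higher. The median array mean of the 10 was 9.71 there, against 3.49 in pools. Of 10 luminal markers, 3 gate differences were called larger and 0 smaller. Between the tumour gates 2 of 10 basal and 0 of 10 luminal markers were called (limma, 7 luminal at an unadjusted p under 0.05). The part of these shifts was not tested.

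The Lin- fraction served as a second comparison for the gates. In normal glands 6 of 7 genes were lower in CD29hiCD24+ than in Lin- cells, beside 40.2% of all genes called and 23.2% called lower, by -1.70 ± 0.37 for Stat5a to -4.27 ± 0.44 for Spdef. Kit (-2.17 ± 0.66, adjusted p = 0.0122) lost its call there without pool F (-1.60, adjusted p = 0.184) and without its CD29hiCD24+ array alone (-1.92, adjusted p = 0.0547), and Elf5 (-3.99 ± 0.94) with only these groups fitted (adjusted p = 0.0610). The second Kit probe set did not differ there (0.10 ± 0.31, adjusted p = 0.880). Without the CD29hiCD24+ array of pool F, Elf5 was -2.44 and called. Ehf was -3.77 ± 0.64, and -2.15 and called without pool F. In tumours Elf5 was lower by -3.39 ± 0.73 (adjusted p = 0.00569), 1 of 7 called beside 8.36% of all genes (4.63% lower). Its CD29hiCD24+ values in tumours D and E were in the low band. Without tumour E the call of Elf5 was lost (adjusted p = 0.0514). With the random block 3 of 7 were called, as Elf3 (-1.32, adjusted p = 0.0137) and Kit (-1.55, adjusted p = 0.00842) joined it. Without the CD29hiCD24+ array of pool F, Ehf (-1.17, adjusted p = 0.0173) and Elf3 (-1.32, adjusted p = 0.0483) joined it. Of the other probe sets of Ehf, a pair was called lower with all arrays, by -1.31 ± 0.31 (adjusted p = 0.0141) and -1.51 ± 0.42 (adjusted p = 0.0352). Between CD29+CD24+ and Lin- cells limma called 0 of 7 in normal glands, where 4.19% of all genes were called, and 0 of 7 in tumours, where 0.215% were. At an unadjusted p under 0.05 the count was 0 of 7 in both.

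Ordered by group mean, Ehf ran from tumour Lin- (12.76) and CD29+CD24+ (12.40) through tumour CD29hiCD24+ (11.58) to normal CD29+CD24+ (9.67), Lin- (8.998) and CD29hiCD24+ (5.23), and only its first pair and its normal CD29+CD24+ and Lin- groups overlapped in range. Stat5a put the 3 normal groups first, at 10.32, 10.03 and 8.33, and the 3 tumour groups, which overlapped as neighbours, last at 6.56, 6.23 and 5.90. Kit put the tumour groups first, at 9.49, 9.49 and 7.94, and ended with normal CD29hiCD24+ cells at 4.72. Its range in tumour CD29hiCD24+ cells overlapped that in normal CD29+CD24+ cells. Elf5 ran from normal CD29+CD24+ (9.08) and Lin- cells (8.95) through tumour Lin- (6.38) and CD29+CD24+ cells (5.87) to normal (4.96) and tumour CD29hiCD24+ cells (2.99). From tumour Lin- cells on, each group overlapped the next in range. For Elf3 the 3 tumour groups (8.81, 8.48 and 7.50) lay between normal CD29+CD24+ (9.62) and Lin- cells (8.87) above and normal CD29hiCD24+ cells (6.22) below. The gap between normal and tumour Lin- cells was only 0.06, with overlapping ranges, and the tumour groups overlapped as neighbours.

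Among the 15 tumour arrays, which share 5 tumours and 3 populations, Elf5 correlated with Ehf at r = 0.77 and with Kit at r = 0.77, and Ehf with Kit at r = 0.69. Gata3 correlated with the other 6 genes at r of -0.35 to 0.36. These values are descriptions, and arrays of 1 tumour are not independent. Over all 24 arrays, which fall into tumour and normal clusters, the genes with the most similar pattern were Gsta4 (r = 0.959), 1810044D09Rik and Tmc7 for Ehf, Dlg1 (0.928), Prom2 and Ssx2ip for Elf5, and Nectin4 (0.911), 2610528J11Rik and Mri1 for Elf3. For Spdef they were Ccdc162 (0.991), Get1 and Bmf, for Stat5a Abca5 (0.984), Cldn10 and Serinc3, for Gata3 Pex11a (0.907), Tbc1d20 and Blcap, and for Kit Nr1d2 (0.911), Adam17 and Scd1.

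Of 22 other ETS factors on the list 16 were measured, and in tumour CD29hiCD24+ cells 0 were called higher (limma, also 0 at an unadjusted p under 0.05) and 3 lower. Of all genes, 15.6% were called higher and 22.9% lower there. The 3 were Erg (-5.59 ± 0.55) and Fli1 (-5.16 ± 0.48), ETS factors of endothelium, and Ets2 (-0.91 ± 0.16). The median of the 16 was -0.28, against -0.01 over all genes. Endothelial markers, 9 of 10 measured, moved with them, with array means of 3.20 to 4.06 in tumour and 6.81 to 9.58 in normal CD29hiCD24+ cells, and their part was not tested. The CD29+CD24+ comparison had 4 higher and 1 lower, among them Etv3 (1.99 ± 0.24), Etv5 (1.95 ± 0.55) and Ets2 (-1.25 ± 0.16). In Lin- cells 5 were higher, with Etv3 (1.84 ± 0.24) and Elf2 (1.80 ± 0.41) first, and Ets2 (-1.07 ± 0.16) was lower. Beside them, 16.4% of all genes were higher and 27.1% lower in CD29+CD24+ cells, and 13.9% and 26.6% in Lin- cells. Between the normal gates Erg (5.72 ± 0.61) and Fli1 (5.20 ± 0.54) led 5 ETS factors that were higher in CD29hiCD24+ cells, and Ets1 (-1.08 ± 0.31) and Ets2 (-0.51 ± 0.18) were the lowest of 3 that were lower. There 21.3% of all genes were higher and 25.3% lower.

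Other luminal regulators, 23 of 24 measured, were called in both directions. All genes were called higher in 15.6% and lower in 22.9% in CD29hiCD24+ cells. These shares were 16.4% and 27.1% in CD29+CD24+ cells, and 13.9% and 26.6% in Lin- cells. In tumour CD29hiCD24+ cells 6 rose, led by Grhl3 (5.74 ± 0.48), a grainyhead factor of the epidermal barrier, and Ovol1 (5.64 ± 0.48), a zinc finger factor of epithelial differentiation. The 6 that fell ended with Pgr (-4.00 ± 0.58) and Esr1 (-3.52 ± 1.26), the progesterone and estrogen receptors. Among CD29+CD24+ cells 7 rose, with Grhl3 (8.49 ± 0.48) and Tfap2c (3.302 ± 0.25) first, and 6 fell, with Esr1 (-7.47 ± 1.26) and its coactivator Cited1 (-7.07 ± 0.96) last. In Lin- cells 6 rose and 4 fell, with Grhl3 at 8.59 ± 0.48, Ovol1 at 3.87 ± 0.48, Esr1 at -7.39 ± 1.26 and Cited1 at -7.84 ± 0.96. The median of the 23 was near 0 in each, at -0.05, -0.06 and 0.16 in the order CD29hiCD24+, CD29+CD24+ and Lin-. Between the normal gates 5 were higher in CD29hiCD24+ cells, led by Tfap2c (3.55 ± 0.28) and Hey1 (2.60 ± 0.53), and 10 lower, ending with Foxa1 (-4.26 ± 0.85) and Cited1 (-5.04 ± 1.07). There 21.3% of all genes were higher and 25.3% lower. Between the tumour gates 0 were higher (limma, also 0 at an unadjusted p under 0.05) and 4 lower, beside 1.94% of all genes called lower. The 4 were Pgr (-2.15 ± 0.50), Grhl3 (-1.58 ± 0.41), Notch3 (-1.41 ± 0.31) and Grhl1 (-1.30 ± 0.33).

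In the prolactin, STAT5 and RANK axis 17 of 20 genes were measured. The counts below stand beside 15.6% of all genes higher and 22.9% lower in CD29hiCD24+ cells. For CD29+CD24+ cells these shares were 16.4% and 27.1%, and for Lin- cells 13.9% and 26.6%. Stat5b, whose gene lies 346 bp from Stat5a on chromosome 11, was lower in tumour CD29+CD24+ (-2.69 ± 0.36) and Lin- cells (-1.64 ± 0.36) but was not called in CD29hiCD24+ cells (-0.17 ± 0.36, adjusted p = 0.748). The kinase gene Jak2, which carries the prolactin signal to STAT5, was lower in all 3, by -0.53 ± 0.19 in CD29hiCD24+, -1.25 ± 0.19 in CD29+CD24+ and -1.41 ± 0.19 in Lin- cells. In tumour CD29hiCD24+ cells 2 genes rose, Tnfsf11 (3.13 ± 0.90), which encodes RANK ligand, and the cyclin gene Ccnd1 (1.23 ± 0.26), and 4 fell, with Socs2 (-2.89 ± 0.28), a feedback inhibitor of STAT5 signalling, and Igf2 (-4.41 ± 0.33) lowest. In CD29+CD24+ cells 3 rose, with Tnfsf11 (2.69 ± 0.90) and Cebpb (2.22 ± 0.28) first, and 5 fell, with Wnt4 (-4.30 ± 0.50) and the casein gene Csn3 (-6.00 ± 2.25) last. The caseins Csn1s1 (2.87 ± 1.96, adjusted p = 0.267) and Csn2 (3.36 ± 2.51, adjusted p = 0.316) had large errors and were not called there. In Lin- cells 1 rose, Cebpb (1.22 ± 0.28), and 5 fell, with Wnt4 (-4.81 ± 0.50) and Csn3 (-7.76 ± 2.25) lowest.

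Kitl, which encodes the ligand of KIT, was lower in tumour CD29hiCD24+ cells (-2.02 ± 0.43, adjusted p = 0.000752), with 11.71 in tumour and 13.73 in normal arrays on average, and was not called in CD29+CD24+ cells (-0.02 ± 0.43, adjusted p = 0.976). With it on the list were markers of luminal progenitors, 15 genes in all, of which 14 were measured, Kitl included. Shares of all genes called higher and lower were 15.6% and 22.9% in CD29hiCD24+ cells. They were 16.4% and 27.1% in CD29+CD24+ cells, and 13.9% and 26.6% in Lin- cells. In tumour CD29hiCD24+ cells 1 rose, the amino acid transporter Slc6a14 (5.17 ± 0.55), and 4 fell, with Tspan8 (-4.15 ± 0.59) and the integrin gene Itgb3 (-4.78 ± 0.75) lowest. In CD29+CD24+ cells Slc6a14 (7.80 ± 0.55) and Lbp (3.26 ± 1.13) rose and Tspan8 (-2.66 ± 0.59) and Sorl1 (-2.66 ± 0.40) fell. In Lin- cells Slc6a14 rose (9.18 ± 0.55) and 3 fell, with Sorl1 at -3.27 ± 0.40 and Itgb3 at -2.53 ± 0.75. The median of the 14 was -1.23 in CD29hiCD24+, -0.15 in CD29+CD24+ and -0.79 in Lin- cells.

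**Figure D4:**
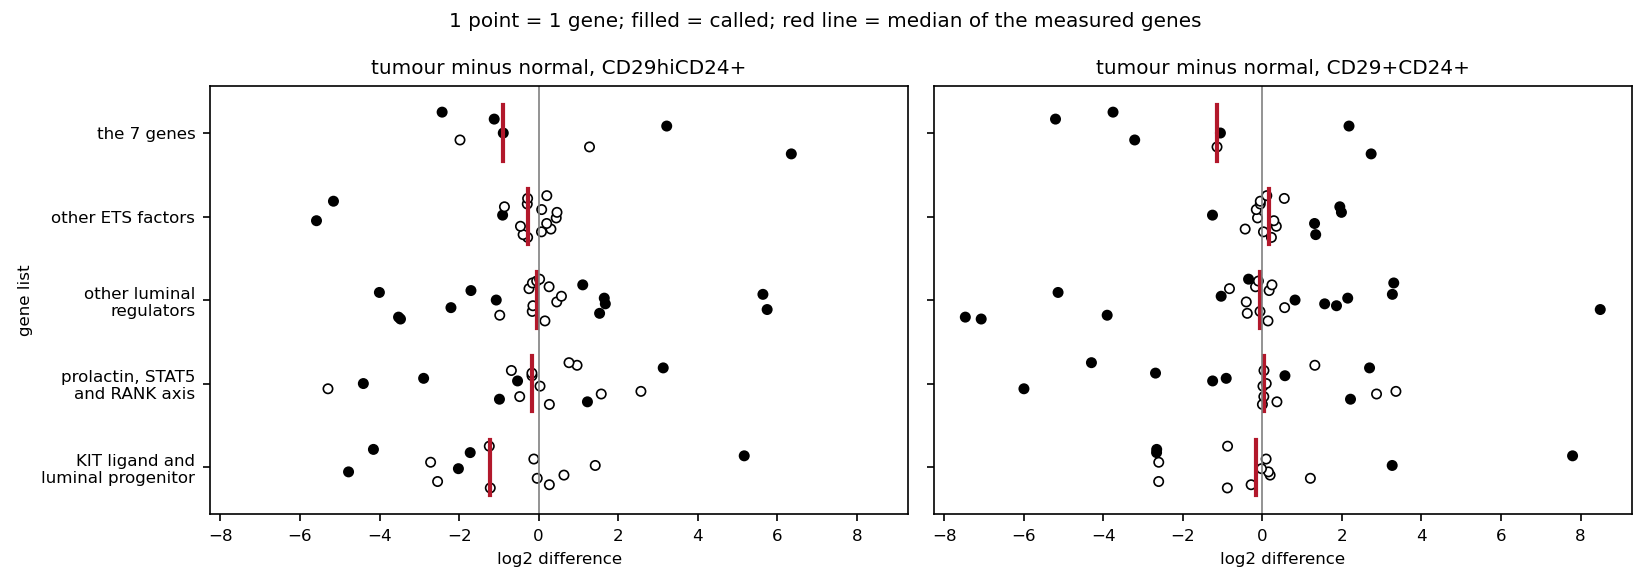
Tumour minus normal difference in log2 signal (x axes) in CD29hiCD24+ (left) and CD29+CD24+ cells (right) for the 7 genes and the 4 related lists (y axis). A point is 1 gene, filled where called, and the red line is the median of the measured genes of a list. The medians of the 4 lists lie between -1.23 and 0.17, while single genes run from -7.47 for Esr1 to 8.49 for Grhl3.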

How the data were processed

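RNA of 24 sorted samples was amplified in a two-cycle protocol and read on Affymetrix arrays. The values the authors deposited are log2 signals, 1 for each probe set and array. The submitters' processing notes name RMA, GCRMA and Partek without versions, and which step each did is not given. The scale was read from the values (0.489 to 16.06, array medians 3.26 to 3.41). Precision is limited by how few arrays a group has.

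The annotation gave 1 gene for 34945 of the 45101 probe sets, several for 932 and none for 9160, and 64 were controls. Those above the 40th percentile in at least 3 arrays were kept (24278), and the one with the highest mean stood for its gene. limma 3.58.1 in R 4.3.3 fitted 6 group means over 24 arrays, with a variance trend and no term for the tumour or pool, for 10 contrasts. The fit was also run on simulated arrays with known changes. Their noise was independent between arrays, with no shared tumour or pool effect. That run therefore cannot show how the fit handles arrays of the same tumour. Arrays within a group correlated at 0.950 to 0.991. The 7 genes and all lists were chosen with earlier results of these data known. All 7 genes are described. Of a list, the 2 highest and 2 lowest called genes of a contrast were named, and marker genes where their values stand beside a result. Stat5b, Jak2, Kitl, 2 further caseins, Notch3 and Grhl1 were named after their values were seen. For similarity, the 3 genes with the highest Pearson correlation over 24 arrays were taken.

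Letters in the titles tie 3 arrays to a tumour or pool, and 2 titles with no letter were taken as pool H by elimination. With group means removed, arrays of 1 tumour correlated at a median of 0.578 (15 pairs, 0.359 to 0.738), against -0.167 for different tumours (60 pairs). For pools it was 0.142 (9 pairs, -0.038 to 0.319) and -0.071 (18 pairs). Pooled glands are separate samples per the labels. Alternatives were no filter, other choices of probe set, quantile normalisation, a random replicate block, only the groups compared, no trend, a block for description-number ranges, an actin covariate, each tumour or pool left out, and the CD29hiCD24+ array of pool F left out.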

Additional observations from a re-analysis of the deposited data

Results flagged for a closer look

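In 4 of 21 checks of a gene in a group of 5 tumour arrays, 1 array lay farther from the others than a 95% limit for a single outlying value allows, and chance gives about 1 in 20. In CD29hiCD24+ cells tumour E was lowest for Ehf, at 10.50 with the nearest tumour at 11.73, for Stat5a, at 5.26 with the nearest at 6.055, and for Spdef, at 2.333 with the nearest at 2.438. All Spdef values of that group lie in the low band. The 3' minus 5' signal of actin in that group was 2.47 in tumour E, against 1.66 to 2.13 in the other tumours, and its part was not tested. In CD29+CD24+ cells tumour B was highest for Spdef, at 3.07 with the nearest tumour at 2.568. Leaving out tumour E kept the calls of Ehf and Stat5a between tumour and normal CD29hiCD24+ cells.

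The CD29hiCD24+ minus CD29+CD24+ difference itself differed between tumours and normal glands for 4 genes by limma. It was less negative in tumours by 3.618 for Ehf (adjusted p = 0.00128), by 2.419 for Elf3 (adjusted p = 0.0104), by 4.083 for Spdef (adjusted p = 8.96e-06) and by 1.328 for Stat5a (adjusted p = 0.0278). Mean differences in tumours and normal glands were -0.82 and -4.44 for Ehf and -0.98 and -3.40 for Elf3. They were -0.19 and -4.28 for Spdef and -0.66 and -1.99 for Stat5a. Tumour values of Spdef were in the low band apart from tumour B in CD29+CD24+ cells. Elf3 and Stat5a lost their calls with the actin covariate and without pool F. The gate difference of basal markers was less positive in tumours, 10 of 10 called, and its part was not tested.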

How the results depend on the processing

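Over the 7 genes, 10 contrasts and 18 alternatives, 1179 of 1260 values kept their direction and their side of the threshold. The other values were 35 calls lost, 27 gained and 19 changes of sign, and none of the genes that changed sign was called in that contrast as reported or in that alternative. The cause of each change was not tested. Quantile normalisation turned Elf3 between tumour and normal Lin- cells to 0.0423 and Gata3 between tumour CD29hiCD24+ and Lin- cells to 0.0409. With the actin covariate the signs turned for Elf5 in the comparison of gate differences (-0.17), for Elf5 (-0.63), Stat5a (-0.000307) and Kit (-0.11) between normal CD29+CD24+ and Lin- cells, and for Kit between the same tumour cells (-0.0242). Leaving out 1 tumour, pool or array gave ranges of -0.31 to 0.21 for Elf3 between tumour and normal Lin- cells, -0.35 to 2.24 for Elf5 and -0.0251 to 0.262 for Gata3 in the comparison of gate differences, -0.23 to 0.13 for Kit between tumour CD29+CD24+ and Lin- cells and -0.0524 to 0.0405 for Spdef between the same normal cells. For Gata3 they were -0.137 to 0.0230 and -0.0658 to 0.217 between the gates in normal glands and tumours, and -0.0011 to 0.246 and -0.177 to 0.0223 between CD29hiCD24+ and Lin- cells in normal glands and tumours.

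Of the 7 genes, 2 were called between the tumour gates with the mean of kept probe sets, the random replicate block or the description-number block, and 3 between tumour CD29hiCD24+ and Lin- cells with these or the actin covariate. In the comparison of gate differences 2 were called with the actin covariate. Leaving out 1 tumour, pool or array gave 3 to 5 between tumour and normal CD29hiCD24+ cells, 0 to 1 between the tumour gates, 2 to 4 for gate differences and 0 to 3 between tumour CD29hiCD24+ and Lin- cells. Beyond these and the calls given with the results, the replicate block changed no call of the 7 genes. Testing 24278 probe sets singly called 8249, 9501 and 8740 between tumour and normal CD29hiCD24+, CD29+CD24+ and Lin- cells, 10144 between the normal gates, 9088 for gate differences, 8494 between normal CD29hiCD24+ and Lin- cells and 18 between tumour CD29+CD24+ and Lin- cells. Against 565 genes between the tumour gates, 1817 were called with the replicate block, 1263 with the description-number block, 149 with only the groups compared, and 207 (without tumour B) to 565 with 1 tumour, pool or array left out. Against 1128 between tumour CD29hiCD24+ and Lin- cells these counts were 2400, 1876, 465 and 469 (without tumour E) to 1117. Against 29 between tumour CD29+CD24+ and Lin- cells they were 122, 45, 0 and 0 (without pool G) to 83 (without tumour D), with 13 without the low-value filter and 15 without the variance trend. Between normal CD29+CD24+ and Lin- cells the replicate block called 906, against 565. Between normal CD29hiCD24+ and Lin- cells, leaving out 1 tumour, pool or array gave 3491 (without pool F) to 5569, against 5420. Higher genes were 53.8% of those called between the tumour gates as deposited and 69.5% after quantile normalisation, and 44.7% and 61.6% between tumour CD29hiCD24+ and Lin- cells.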
